A study of Mus musculus with 3 samples.

Results

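The change shared by both swimming arrays against the nonswimming array was described in mouse muscle. For each gene, the log2 ratio of each swimming array to the nonswimming array was taken, and the gene belonged to the shared change where both ratios had one sign. Its shared change is the smaller of those ratios. Of 15269 genes with a spot well above background on all 3 arrays, 9779 (64.0%) had ratios of one sign, 4829 above 0 on both and 4950 below 0 on both. The remaining 5490 had opposite signs. Both ratios subtract the same nonswimming array, which by itself makes one sign more frequent than opposite signs. The 64.0% is therefore not a measure of an effect of swimming.

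Muscle was taken after 14 days from male mice, listed as 6 weeks old, in 3 groups. The first group did not swim and ate normal food, the second swam and ate normal food, and the third swam and ate food with 0.5% Chlorella powder, a dried green alga. Each group's RNA, pooled from 10 mice, was labelled with the dye Cy3 and read on 1 Agilent array of its own. The strain, the muscle sampled and the swimming schedule are not given in the sources used here, and no group ate Chlorella without swimming. Since each group had a single array, no difference could be checked against replicates or tested, and both ratios used the same nonswimming array. The errors printed are those the scanner software gives for the spots, carried to the log2 ratio (median 0.20). They leave out the spread between animals, pools and labelling reactions.

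Levels are the processed signal on a log2 scale, less the 75th percentile of that array's probes, so that a level of 0 is the 75th percentile. Levels are listed in the order nonswimming, swimming on normal food, swimming on Chlorella food. Ratios are listed with the normal food array first. The arrays lay on 1 slide and were read in 1 scan at different positions, with 23841, 24858 and 23448 probes well above background and none saturated. The labelled tissue was borne out by its markers: Acta1, the skeletal actin, had log2 levels of 9.32, 9.18 and 9.55, Ckm, the muscle creatine kinase, had 9.11, 9.07 and 9.33, and Myh4, a fast myosin heavy chain, had 9.47, 9.39 and 9.73. Over all measured genes the median log2 ratio was -0.04 on the normal food swimming array and 0.04 on the Chlorella swimming array.

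As background, endurance work draws on the slow fibres of skeletal muscle, which carry their own isoforms of myosin and troponin. Fat cells and liver, and muscle to a lesser degree, build fatty acids from citrate through a short chain of cytosolic enzymes. Cytokines that signal through JAK kinases and STAT factors induce SOCS proteins, which switch the same pathway off again.

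A shared change of at least 2-fold was found in 173 genes. Of these, 124 were higher on both swimming arrays, which is 0.812% of measured genes, and 49 were lower on both, which is 0.321%. These shares are the comparison for the list counts below, and a list with 0 past the rule is near them. For one sign alone, the shares were 31.6% above 0 on both arrays and 32.4% below 0 on both. Each swimming array alone differed more often: 4.65% of measured genes were at least 2-fold higher on the normal food swimming array and 2.05% on the Chlorella swimming array, while 0.923% and 1.43% lay 2-fold or more below the nonswimming array. Another 40 genes were at least 2-fold higher on the normal food swimming array but 2-fold or more below the nonswimming array on Chlorella food, and 2 genes showed the reverse. The median shared change was 1.32 among the 124 higher genes and -1.28 among the 49 lower genes.

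**Figure D1:**
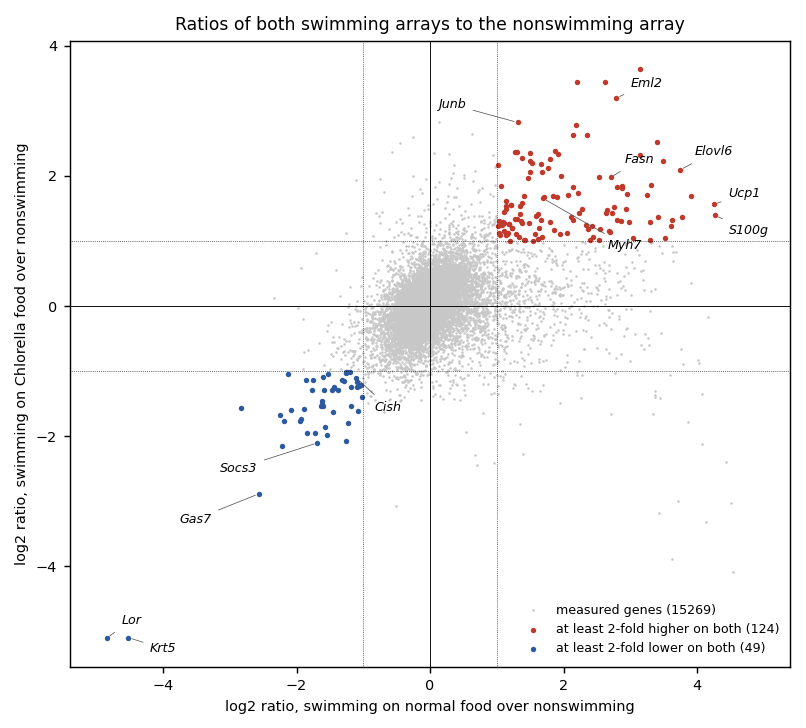
Each point is a gene measured on all 3 arrays. The x axis is the log2 ratio of the normal food swimming array to the nonswimming array, the y axis that of the Chlorella swimming array, and dotted lines mark 2-fold. The 124 genes in red lie at or above 2-fold on both axes and the 49 in blue at or below it on both, with Lor and Krt5 far from the rest.

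The higher and lower sets differed in how alike the swimming arrays were. Among the 49 lower genes, 44 (89.8%) had swimming arrays within 1.5-fold of each other. However, 29 of the 49 had a signal under 20 on at least 1 swimming array, near the floor, where there is less room to differ. The part of this floor in the 89.8% was not tested. Among the 124 higher genes, 64 (51.6%) did, 48 (38.7%) were higher on the normal food array and 12 (9.68%) were higher on the Chlorella array. At the edge of the higher set stood Tnni1, 2.01-fold higher on the Chlorella array, with Cyp2j13 (1.998-fold on that array) just outside. At the edge of the lower set stood Fscn3, 2.02-fold lower on the normal food swimming array, with Ncstn (1.998-fold) just outside.

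Fatty acid synthesis had the most shared higher genes of the 52 lists. Of 25 measured genes on the list, 7 were at least 2-fold higher on both swimming arrays (against 0.812% of all measured genes) and 0 were lower. Both ratios were above 0 for 21 (against 31.6%) and below 0 for 1 (against 32.4%). The medians were 0.70 and 0.47 against -0.04 and 0.04 over all measured genes. Each step from citrate to palmitate was among the 7. Slc25a1, the mitochondrial citrate exporter, had log2 levels of 0.67, 3.35 and 1.83, with ratios of 2.67 and 1.15. Acly, which splits citrate into acetyl-CoA, had levels of 0.06, 2.87 and 1.38, with ratios of 2.81 and 1.32. Acaca, the carboxylase that makes malonyl-CoA, had levels of -1.09, 1.85 and 0.63, which is 7.70-fold and 3.31-fold higher. In each case both swimming arrays lay above the nonswimming array and the normal food array was the highest.

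Fasn, the synthase that assembles palmitate, was the brightest of the 7, with log2 levels of 5.82, 8.52 and 7.80. Its log2 ratios were 2.70 ± 0.20 and 1.98 ± 0.20 (scanner error), or 6.52-fold and 3.94-fold, and a dimmer measured probe of the gene gave 3.13 and 1.92. Elovl6, which lengthens palmitate to stearate, had levels of -0.17, 3.58 and 1.92 and was 13.4-fold and 4.27-fold higher. Thrsp, a protein that promotes lipogenesis, had levels of 3.58, 5.92 and 4.83, with ratios of 2.34 and 1.25. Pnpla3, a lipid droplet enzyme, had low levels of -4.08, -2.18 and -2.40, with ratios of 1.90 and 1.68. Among the 7, the swimming arrays were within 1.5-fold of each other for Pnpla3, and the normal food array was higher for the other 6.

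The desaturase Scd1, with ratios of 1.69 and 0.97, lay just under the rule on the Chlorella array, and Scd2 gave 1.12 and 0.64. The regulators were under the rule, near or below the list's median on the normal food array: Srebf1, the sterol-responsive factor of lipogenesis, gave 0.70 and 0.21, and Mlxipl, the carbohydrate-responsive one, gave 0.25 and 0.54. The related cholesterol synthesis list had 0 of 24 measured genes past the rule (against 0.812% higher and 0.321% lower over all), with medians of 0.17 and 0.08. Tm7sf2, a sterol reductase, gave 0.62 and 0.74. Fatty acid oxidation also had 0 of 34 past the rule, near the same shares, with medians of -0.17 and 0.05.

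The promoters of the lipogenic genes are shown for the CCAAT box, which the general factor NF-Y reads and which occurs in several lipogenic promoters. The windows are the 250 bases before the RefSeq gene start in GRCm38.p6, written 5' to 3' on the gene's strand. They lie at chr11:120824548-120824797 (minus strand) for Fasn, chr7:97417551-97417800 (minus strand) for Thrsp and chr16:17928220-17928469 (minus strand) for Slc25a1. Capitals mark CCAAT on either strand, where the complement reads ATTGG, and in Slc25a1 also the palindrome CACGTG, an E-box.
Fasn: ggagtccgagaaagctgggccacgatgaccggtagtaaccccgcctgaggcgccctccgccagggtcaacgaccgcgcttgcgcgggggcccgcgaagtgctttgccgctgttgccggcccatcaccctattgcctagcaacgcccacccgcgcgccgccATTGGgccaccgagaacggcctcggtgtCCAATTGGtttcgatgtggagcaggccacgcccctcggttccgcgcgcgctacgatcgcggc
Thrsp: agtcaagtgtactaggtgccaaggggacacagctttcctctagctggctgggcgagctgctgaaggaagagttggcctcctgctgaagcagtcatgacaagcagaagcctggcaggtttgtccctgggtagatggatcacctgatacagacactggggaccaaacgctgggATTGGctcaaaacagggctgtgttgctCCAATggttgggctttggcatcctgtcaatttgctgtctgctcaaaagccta
Slc25a1: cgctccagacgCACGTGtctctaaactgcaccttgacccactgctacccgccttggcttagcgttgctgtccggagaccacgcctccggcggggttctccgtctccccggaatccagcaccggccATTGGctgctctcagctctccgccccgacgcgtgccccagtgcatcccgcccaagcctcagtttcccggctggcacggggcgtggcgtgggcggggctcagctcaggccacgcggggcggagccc

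CCAAT occurred 3 times in the Fasn window, beginning 90, 62 and 59 bases before the start, the nearest pair overlapping on opposite strands. It occurred at 79 and 52 bases in Thrsp, at 125 bases in Slc25a1 and at 99 bases in Pnpla3, and not in the windows of Elovl6, Acly or Acaca. Of 32851 promoter windows of this length in the RefSeq table, 33.9% held CCAAT on either strand and 10.1% held it at least 2 times. CACGTG was found in 6.02% of all windows and, among the 7 genes, in Slc25a1 only, 239 bases before the start. The sterol element TCACNCCAC, in 1.05% of all windows, was found in none of the 7. A match describes these letters in this window and is not a measurement of binding.

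A few genes of lipid storage and fat tissue were also past the rule, each higher on the normal food swimming array than on the Chlorella one. Cidea, a lipid droplet protein of brown fat, had log2 levels of 2.81, 5.61 and 4.64 and was 6.97-fold and 3.55-fold higher. Pck1, which supplies glycerol backbone in fat cells, had levels of 2.66, 4.79 and 3.98, with ratios of 2.14 and 1.32. These were the 2 of 28 measured genes of triglyceride storage and lipolysis past the rule upward (against 0.812% over all), and 0 were lower. On both arrays 16 were above 0 (against 31.6%) and 4 below 0 (against 32.4%), with medians of 0.30 and 0.23. Ucp1, the uncoupling protein of brown fat, had levels of -0.23, 4.02 and 1.33, with ratios of 4.25 and 1.56, and Otop1, a proton channel of brown fat, had -3.66, -1.11 and -2.48. With Cidea they made 3 of 18 on the brown fat list (against 0.812% over all), whose medians were 0.31 and 0.28. Prdm16, the brown fat regulator, gave -0.06 and 0.11, and Ppargc1a, its coactivator, gave -0.30 and 0.30.

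Fat cell markers moved with these genes on one swimming array and less on the other. The adipocyte list had 25 measured genes of 30 on the array. Of these, 3 were past the rule upward (against 0.812% over all), namely Fasn, Pck1 and Thrsp, each also on a list above. Both ratios were above 0 for 15 (against 31.6%) and below 0 for 3 (against 32.4%), with medians of 0.997 and 0.19. The list's summed linear level, in units of the 75th percentile, was 1008, 1813 and 1378. That sum includes Fasn, Thrsp and Pck1, so it is not a reading of fat cells separate from the lipogenic genes. The fat cell hormones Adipoq (ratios 1.23 and -0.17), Retn (1.20 and -0.01) and Lep (0.997 and 0.0086) and the adipsin gene Cfd (1.03 and 0.06) were higher on the normal food swimming array and within 0.2 log2 units of the nonswimming array on the Chlorella array. The part of fat tissue in the lipogenic ratios was not tested. In pooled tissue RNA, a change in the number of cells of a type and a change in RNA per cell cannot be told apart.

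**Figure D2:**
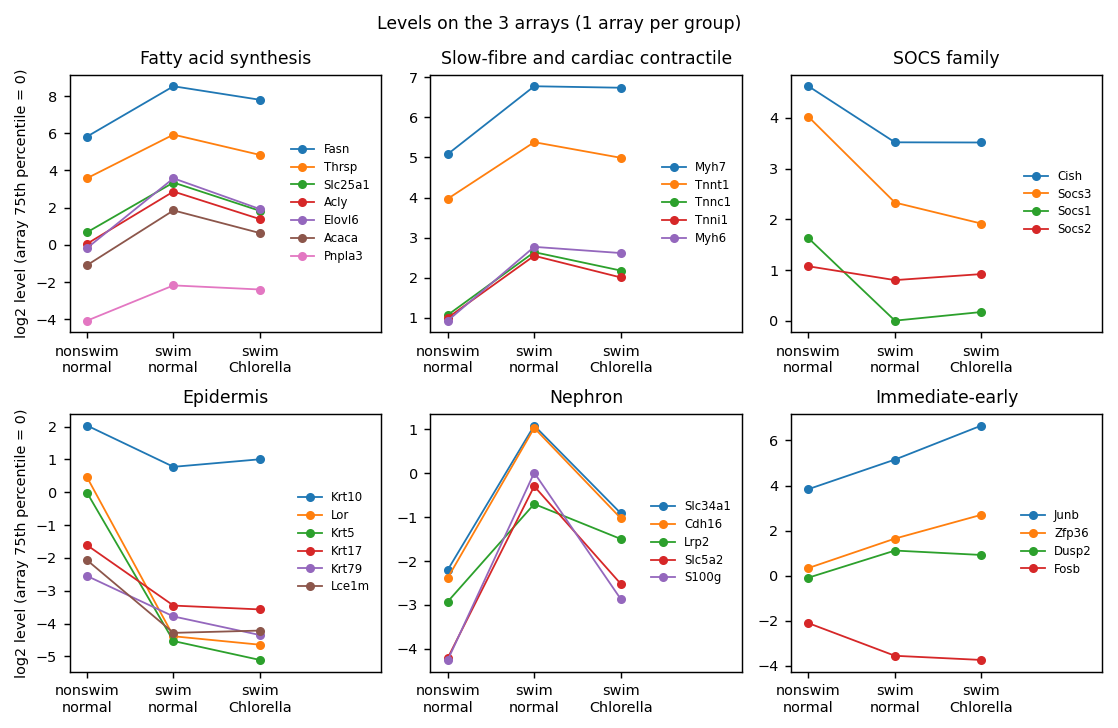
Log2 levels on the 3 arrays, from left to right nonswimming, swimming on normal food and swimming on Chlorella food, for members of 6 groups. Each point is 1 array and lines join the points of a gene. Lipogenic and nephron genes peak on the normal food swimming array, Myh7, Myh6, Cish and Lce1m are nearly level between the swimming arrays, and Junb and Zfp36 are highest on the Chlorella array.

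The slow myosin heavy chain and the 3 slow troponin subunits were at least 2-fold higher on both swimming arrays. They were 4 of 21 measured genes on the slow-fibre list (against 0.812% of all measured genes). Myh7, the slow and cardiac beta myosin heavy chain, had log2 levels of 5.08, 6.78 and 6.74, or 3.23-fold and 3.15-fold higher. Myh6, the alpha myosin heavy chain of the heart, had levels of 0.93, 2.77 and 2.62, or 3.58-fold and 3.22-fold higher. A further probe of each gene gave close ratios, 1.60 and 1.59 for Myh7 and 1.62 and 1.53 for Myh6. These neighbouring genes are near-identical over much of their length, so that a probe of one can read the other.

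The 3 slow troponin subunits were also past the rule. Tnnc1, the calcium-binding subunit, had log2 levels of 1.07, 2.64 and 2.18, Tnnt1, the tropomyosin-binding one, had 3.97, 5.38 and 4.99, and Tnni1, the inhibitory one, had 1.002, 2.55 and 2.01. Their ratios on the normal food array were 1.57, 1.41 and 1.55, and on the Chlorella array 1.11, 1.02 and 1.01. Both Tnnt1 and Tnni1 lay close to the limit on the Chlorella array, and were past it in 5 of 9 and 3 of 8 processing settings. Actc1, the cardiac actin, lay at 0.936 and 1.001.

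The rest of the slow-fibre list did not follow. Of 21 measured genes 4 were past the rule upward (against 0.812% over all). Both ratios were above 0 for 9 (against 31.6%) and below 0 for 7 (against 32.4%), the latter near the share over all. The medians were 0.05 and 0.30. Mb, the oxygen store myoglobin, gave -1.04 and -0.40, Casq2, a calcium store of slow and heart muscle, gave -0.21 and -0.67, and Myl3, the slow essential light chain, gave -0.09 and 0.20. Tpm3, the slow tropomyosin, gave 0.05 and -0.22, and Myl2, the slow regulatory light chain, gave 0.76 and 0.30. Of heart-type genes, 1 of 13 measured was past the rule upward (Myh6, against 0.812% over all). Nppa, Myl7 and Ryr2, all heart muscle genes, were well above background on none of the arrays. Other heart genes were measured on all 3: Tnni3, the cardiac troponin I, gave 0.05 and 0.61, and Mybpc3, the cardiac myosin-binding protein, gave 0.99 and -0.14. Nppb, a heart peptide hormone, was well above background on the Chlorella array only. The part of heart muscle in the Myh6 and Myh7 ratios was not tested. No fast-fibre gene of 24 was past the rule in either direction (against 0.812% higher and 0.321% lower over all), and the medians were -0.16 and 0.16. Atp2a2, the slow calcium pump, gave 1.08 and 0.51, and Sln, the pump regulator sarcolipin, gave 2.22 and 0.75.

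Feedback inhibitors of cytokine signalling were lower on both swimming arrays. Socs3, the inhibitor of IL-6 family signalling, had log2 levels of 4.02, 2.33 and 1.92, or 3.22-fold and 4.30-fold lower. Socs1, which acts on interferon signalling, had levels of 1.63, 0.01 and 0.18, or 3.08-fold and 2.74-fold lower. Cish, a target of growth hormone and STAT5, had levels of 4.62, 3.52 and 3.51, or 2.15-fold lower on both. For each, the nonswimming array stood alone and the swimming arrays were within 1.5-fold of each other. All of the processing alternatives that measured these genes kept them at least 2-fold lower.

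The rest of the list did not share this difference. Of 19 measured genes of the IL-6 family and SOCS list, 3 were past the rule downward (against 0.321% over all) and 0 upward (against 0.812%). Both ratios were above 0 for 5 (against 31.6%) and below 0 for 9 (against 32.4%), with medians of -0.15 and -0.01. Socs2 gave -0.27 and -0.15, and the receptor chain Il6st gave 0.01 and 0.06. Stat3, the factor downstream of it, gave -0.35 and 0.29. Pim1, a kinase gene that STAT factors induce, gave 0.69 and 0.65, and Il6 itself was well above background on none of the arrays. Immune markers differed between the swimming arrays: the macrophage list, measured for 22 of 22, had medians of -0.16 and -0.81 and a summed level of 146, 179 and 90.0. That sum leans on Lyz2, the brightest of the list, with ratios of 0.56 and -0.88. Both ratios were below 0 for 14 of 22 (against 32.4%) and above 0 for 1 (against 31.6%). The part of immune cells in the SOCS ratios was not tested.

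The STAT motif TTCNNNGAA, a palindrome that reads the same on both strands, was looked for in the windows of Socs3, Socs1 and Cish. It occurred once, in Socs3, beginning 154 bases before the start at chr11:117969367-117969616 (minus strand, GRCm38.p6, RefSeq), and is in capitals.
Socs3: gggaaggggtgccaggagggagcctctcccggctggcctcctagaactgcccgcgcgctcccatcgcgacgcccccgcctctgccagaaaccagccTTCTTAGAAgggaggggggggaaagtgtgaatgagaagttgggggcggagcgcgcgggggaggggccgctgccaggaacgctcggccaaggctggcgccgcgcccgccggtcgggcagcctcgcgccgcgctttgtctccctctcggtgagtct

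Of all 32851 windows, 7.02% held this motif. The Socs1 and Cish windows held none, which says only that these letters are not within 250 bases of the start.

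Early response genes past the rule lay in both directions, with Fosb alone in the lower one. Of 35 measured, 3 were at least 2-fold higher (against 0.812% over all) and 1 was at least 2-fold lower (against 0.321%) on both arrays. Junb, an AP-1 subunit, had log2 levels of 3.84, 5.15 and 6.66, or 2.48-fold and 7.08-fold higher, and a further probe gave 1.28 and 2.80. Zfp36, which destabilises cytokine mRNAs, had levels of 0.34, 1.64 and 2.70, and Dusp2, a MAP kinase phosphatase, had -0.09, 1.11 and 0.92. Junb and Zfp36 were over 1.5-fold higher on the Chlorella array than on the normal food swimming array. Fosb, another AP-1 subunit, had levels of -2.11, -3.56 and -3.75, with ratios of -1.45 and -1.63. Its signals were low (66.1, 25.0 and 17.7), and it was past the rule in 7 of 8 processing settings, not with normexp background correction. Fos gave 0.30 and -0.25, and the list's medians were -0.12 and 0.58.

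Epidermal genes held the largest shared differences of all. Lor, which encodes loricrin of the cornified envelope, had log2 levels of 0.46, -4.39 and -4.65, or 28.7-fold and 34.4-fold lower. Krt5, the basal keratin, had levels of -0.01, -4.53 and -5.11, or 22.9-fold and 34.2-fold lower. Both stood alone on the nonswimming array and were dim on both swimming arrays. Krt17 gave ratios of -1.84 and -1.958, Krt79 gave -1.23 and -1.80, and Krt10, the suprabasal keratin, gave -1.26 and -1.03. Lce1m, another envelope gene outside the list, had levels of -2.07, -4.28 and -4.22.

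These 5 keratin and loricrin genes were the 5 of 12 measured epidermal genes past the rule (against 0.321% lower over all measured genes). Of the 12, 11 had both ratios below 0 (against 32.4%), and the medians were -0.89 and -0.95. Of 39 list genes on the array, 26, 20 and 14 were well above background, and the summed level was 16.8, 9.13 and 7.08. Epidermis is not muscle, and 26 of its 39 list genes were well above background in the nonswimming pool. Over all probes, 23841 of 41169 were well above background on that array, so this count alone is not a measure of skin. Krt14, the partner of Krt5, and Krt15 were above background on the nonswimming array and not on all 3, so they fell outside the rule. The part of skin in the other lower genes was not tested. Leaving out every gene on the lists of other cell types and tissues left 113 higher and 42 lower genes, an alternative chosen after seeing the data. It removes listed genes only, so that Lce1m and other genes outside the lists stayed. The counts therefore do not show from which tissue the remaining genes came.

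Most measured nephron genes were higher on both swimming arrays, far more on the normal food one. S100g, a calcium-binding protein, had log2 levels of -4.26, 0.01 and -2.86, or 19.3-fold and 2.63-fold higher, and Slc5a2, the tubular glucose transporter, had -4.21, -0.29 and -2.52, or 15.1-fold and 3.23-fold. Cdh16, the kidney cadherin, had levels of -2.38, 1.03 and -1.02, and Slc34a1, the tubular phosphate transporter, had -2.20, 1.09 and -0.91. Lrp2, the endocytic receptor megalin, had -2.93, -0.70 and -1.50. These were the 5 of 19 measured genes of the kidney list past the rule upward (against 0.812% of all measured genes). Both ratios were above 0 for 14 of 19 (against 31.6%), and the medians were 2.66 and 0.51. The other 5 had opposite signs, among them Umod (2.77 and -1.03), Napsa (2.02 and -0.27) and Fxyd2 (2.66 and -0.05). The list's summed level was 295, 320 and 345, most of it from Pvalb and Aqp1, which muscle also expresses. The glomerular gene Nphs1 was well above background on none of the arrays. With normexp background correction, 0 of the 5 stayed past the rule.

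Kidney-rich genes outside the lists, chosen after their values were seen, followed the same order. Klk1, the tissue kallikrein, had log2 levels of -3.57, 0.21 and -2.20, and its relatives Klk1b3 and Klk1b5 gave ratios of 3.63 and 1.32 and of 3.61 and 1.23. The kallikrein genes are near-identical, so their probes may not be separate readings. Kcnj16, a potassium channel subunit, gave 3.05 and 1.05.

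**Figure D3:**
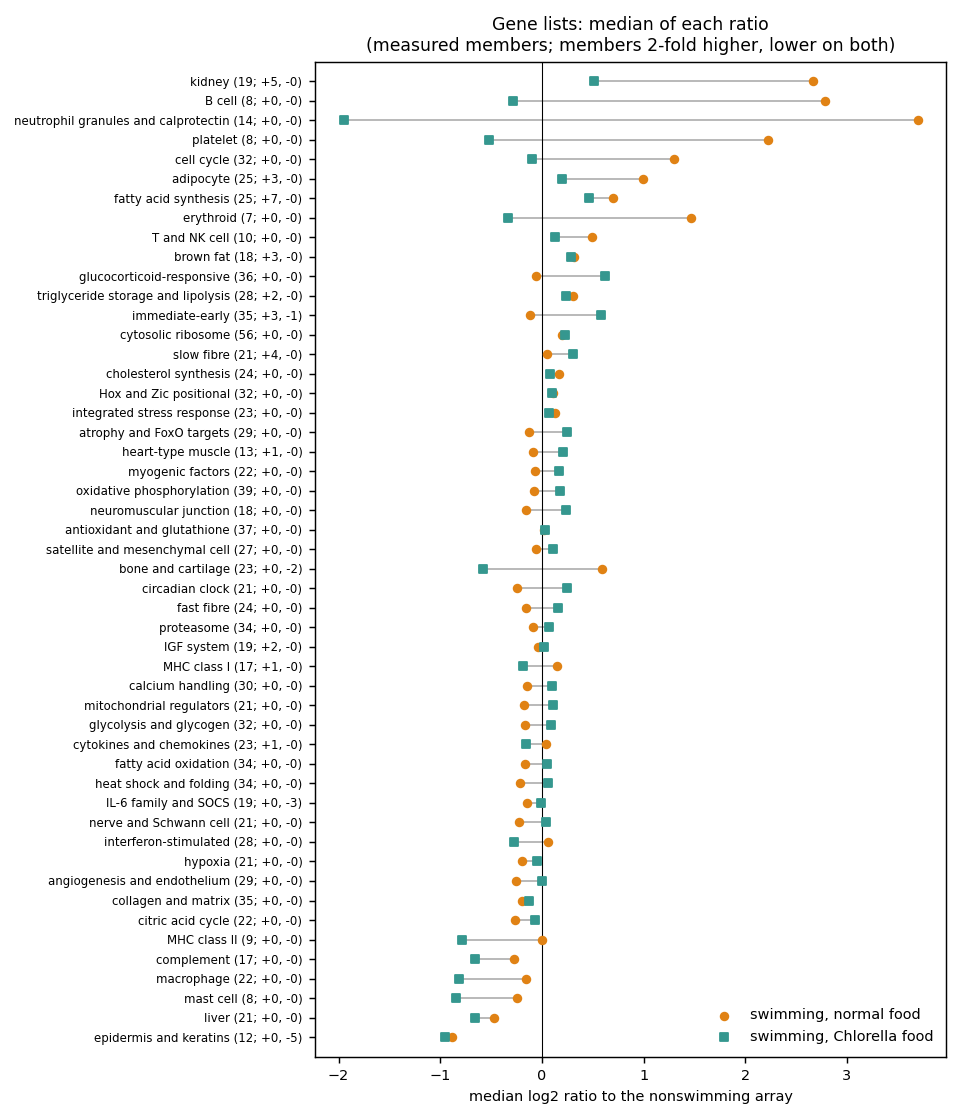
Median log2 ratio to the nonswimming array for each gene list with at least 5 measured genes, with the normal food swimming array as circles and the Chlorella swimming array as squares. Brackets give the measured genes and those at least 2-fold higher (+) and lower (-) on both. The epidermis list lies lowest with both medians near each other, and the neutrophil list has medians of 3.70 and -1.95.

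Tendon and cartilage genes were among the lower ones. Tnmd, which encodes tenomodulin of tendon, had log2 levels of 2.94, 1.56 and 1.65, or 2.59-fold and 2.44-fold lower. Col9a1, a cartilage collagen, had levels of -2.29, -3.55 and -4.37. They were the 2 of 23 measured bone and cartilage genes past the rule (against 0.321% lower over all). The list's medians were 0.59 and -0.58. Scx, the tendon transcription factor, gave -0.12 and -0.0023. Of 35 collagen and matrix genes, 0 were past the rule (against 0.812% higher and 0.321% lower over all). Both ratios were above 0 for 3 (against 31.6%) and below 0 for 20 (against 32.4%), and the medians were -0.20 and -0.13. Fmod, a tendon proteoglycan, gave -0.85 and -0.52 and Dcn, decorin, gave -0.48 and -0.86.

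Small shared shifts without a 2-fold member were also seen. Of 56 cytosolic ribosomal protein genes, 42 (against 31.6% of all measured genes) had both ratios above 0 and 6 (against 32.4%) had both below 0, with medians of 0.20 and 0.22. Rpl30 gave 0.85 and 1.02, Rps14 gave 0.56 and 0.72, and Rpl4 gave -0.38 and -0.95. Of 21 measured liver genes, 16 had both ratios below 0 (against 32.4%) and 1 had both above 0 (against 31.6%), with medians of -0.47 and -0.66. Alb, serum albumin, gave -0.40 and -0.78. Of 22 citric acid cycle genes, 14 had both below 0 (against 32.4%), with medians of -0.27 and -0.07.

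A few members came from 3 further lists, each with 1 or 2 higher genes, where 0.812% of all measured genes were higher. Igfbp1, an IGF-binding protein, gave ratios of 1.03 and 1.12, and Pappa, the protease that frees IGF from such proteins, gave 1.68 and 1.07, the 2 of 19 IGF system genes past the rule. Cxcl1, a neutrophil-attracting chemokine, had low log2 levels of -4.61, -2.08 and -2.63 and was the 1 of 23 cytokine genes. Tap2, a peptide transporter of antigen presentation, gave 1.23 and 1.20, the 1 of 17 MHC class I genes.

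Blood cell lists had no member past the rule, which is near the shares over all measured genes (0.812% higher and 0.321% lower). Opposite signs were found in 13 of 14 neutrophil granule, 6 of 8 B cell and 6 of 8 platelet genes, against 5490 of 15269 over all. Neutrophil granule genes had medians of 3.70 and -1.95 over 14 measured, B cell genes 2.78 and -0.29 over 8, and platelet genes 2.22 and -0.52 over 8. Cell cycle genes had medians of 1.30 and -0.10 over 32. Oxidative phosphorylation, glycolysis and glycogen, myogenic factors, calcium handling, heat shock and proteasome lists also had 0 past the rule, with medians between -0.21 and 0.18 on both arrays.

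The highest shared changes by size came mainly from genes of no list. E130114P18Rik, an uncharacterised transcript, had log2 levels of -5.10, -1.95 and -1.46, or 8.85-fold and 12.5-fold higher. Its nonswimming signal was 8.3, near the lowest signal well above background on that array (6.45). With normexp background correction it was not past the rule. Eml2, a microtubule-associated protein, had levels of -0.60, 2.19 and 2.60, or 6.92-fold and 9.17-fold higher. Slc2a5, the fructose transporter, gave ratios of 3.48 and 2.23, Nat8l, which makes N-acetylaspartate, gave 2.87 and 1.84, and Rasd1, a small G protein induced by glucocorticoids, gave 1.87 and 2.38. Arl15, a small GTPase, gave 1.955 and 2.003, nearly the same on both.

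Among the lowest 15 outside the epidermal genes were Gas7 (-2.57 and -2.89), whose further probe was dim and gave -0.01 and -0.58, and Rab5c, an endosomal GTPase, with log2 levels of 3.52, 1.43 and 1.92. Chtf8, a replication clamp-loader gene, gave -1.93 and -1.73, Slc4a7, a bicarbonate transporter, gave -1.89 and -1.58, and Wnt2, a signalling ligand, gave -1.58 and -1.87. Of the 49 lower genes, 29 had a signal under 20 on at least 1 array, and of the 124 higher genes, 43 did. All 43 were under 20 on the nonswimming array, and some, such as Scnn1a (13.7), also on the Chlorella array.

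**Figure D4:**
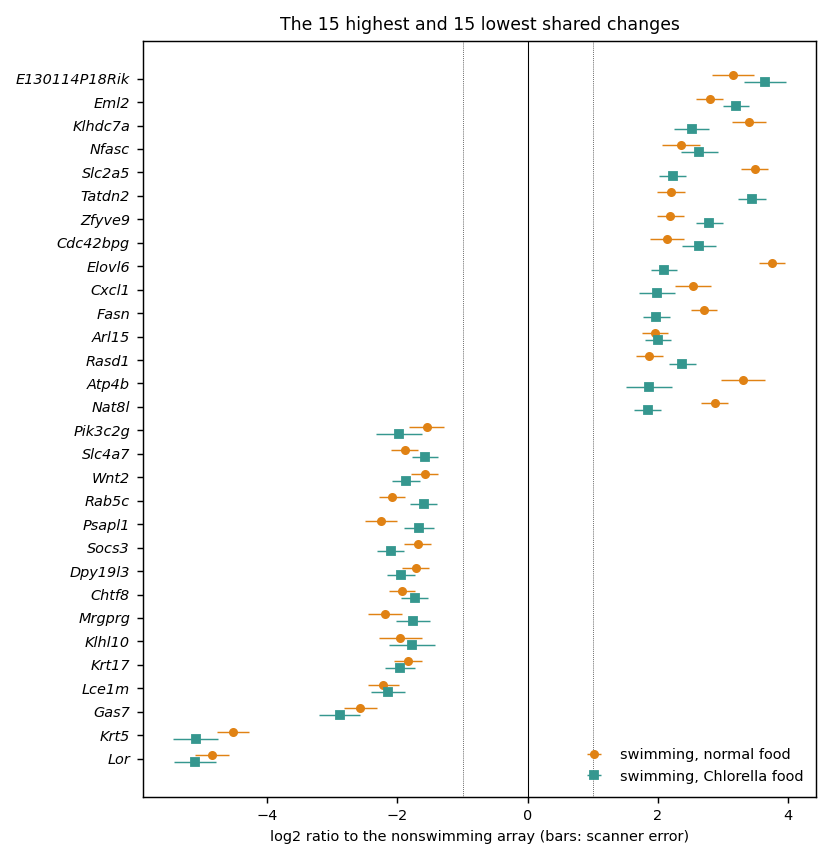
Log2 ratios to the nonswimming array of the 15 named genes with the highest and the 15 with the lowest shared change, normal food swimming array as circles and Chlorella swimming array as squares. Bars are the scanner error of the ratio and dotted lines mark 2-fold. Lor and Krt5 lie below -4.5 on both arrays, and Arl15 has nearly equal ratios of 1.955 and 2.003.

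Genes above background on one side only are given as bounds, the bright level against the lowest signal well above background on the dim array or the dim probe's own signal. Of 231 genes above background on both swimming arrays only, 23 were at least 2-fold higher by this bound, led by Trim12c (at least 5.49-fold and 5.29-fold) and E2f8, a cell cycle repressor (at least 4.16-fold and 4.70-fold). Of 399 above background on the nonswimming array only, 135 were at least 2-fold lower, led by Slc25a41 (at least 11.2-fold and 8.29-fold), Fezf2 (at least 11.1-fold and 8.26-fold) and Gpr101 (at least 9.14-fold and 6.80-fold). Epidermal genes were in that group too: Lypd3, at least 8.27-fold and 6.15-fold lower, and Crct1, at least 8.24-fold and 6.12-fold lower.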

How the data were processed

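The deposited scanner files hold processed intensity values per spot, background-subtracted within the array, the scanner software being Agilent Feature Extraction, version 9.5, per the submitters' processing notes. The authors also deposited a table of log2 values for 13683 spots, which served as an alternative. Its differences between arrays correlated with the scanner's at r = 0.765 and 0.713 for the ratios used here (across spots, which are not replicates), and were within 0.01 of them, up to a constant, for 56.5% and 55.8% of spots. What changed the other spots is unknown. Its column medians were 0.008, -0.005 and 0.010, and the value each probe was centred on is unknown. Its scale (log2) and direction were taken from the spots that matched.

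Control spots were left out, then 194 flagged spots of the 43379 others, which left 43185 spots of 41169 probes. Values are log2 signal minus the array's 75th percentile. A gene is its brightest unflagged probe, kept where well above background on all 3 arrays. Probes were named through RefSeq (22941 by accession, 6663 by symbol, 3108 by older symbol, 8457 by the file's name). Spots printed many times had a median SD of 0.06 log2 units within an array. Arrays give no counts, so their number limits the precision.

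Members, the 52 gene lists and the 2-fold limit were chosen with earlier results of these data known. Genes were named by size: the 15 highest and 15 lowest shared changes among genes with a symbol whose probes had one direction, up to 4 per list, up to 2 from a list with none past the rule, and the 6 largest bounds. Others are named to account for a list. Python 3.11.15, pandas 2.3.3, R 4.3.3 and limma 3.58.1 were used. The rule was run on simulated data with planted changes well past 2-fold and noise of the size of the scanner error. That run held no spread between animals, pools or labelling reactions, so it checks the calculation and not the genes found here. No source used here names the genome build of the probe coordinates, and none of them is printed.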

Additional observations from a re-analysis of the deposited data

How the results depend on the processing

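Counts of genes at least 2-fold higher and lower on both swimming arrays (124 and 49) were 110 and 54 with quantile normalization, 125 and 54 with cyclic loess, 120 and 52 with median centring, and 121 and 49 with the mean over probes. They were 35 and 14 with normexp background correction, 427 and 716 with no filter on dim probes (37.4% of the genes past the rule higher), 55 and 14 with a signal of at least 50 on all arrays (11579 genes) and 77 and 37 in the authors' value table (9467 genes). Fewer genes were tested in those last cases, and the cause of the fall with normexp was not tested. Ratios whose 95% range by scanner error lay wholly beyond 2-fold left 45 and 21, the mean of the swimming arrays gave 409 and 88, limits of 1.5-fold and 3-fold gave 378 and 228 and 34 and 12, and swimming arrays within 1.5-fold of each other left 64 and 44. No filter on dim probes shifted the median ratio of all genes by -0.10 and 0.08. Of 58 named genes past the rule, 29 stayed at least 2-fold in every processing that measured them. Dusp2 stayed in 4 of 9 and Igfbp1 in 6 of 8. Of 886 list medians under alternatives, 852 moved by less than the spread allowed, 32 moved further and 2 changed sign: the B cell median on the Chlorella array was 0.0097 with normexp (main -0.29), and the circadian clock median there was -0.015 in the authors' table (main 0.25). The cause was not tested. No paired analysis was possible because each group had 1 array.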

Other observations

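Several genes past the 2-fold rule lay outside the lists and were chosen after their values were seen. Tkt, the transketolase of the pentose phosphate pathway, had log2 levels of 4.06 on the nonswimming array, 6.70 on the normal food swimming array and 5.49 on the Chlorella swimming array. Pgd, an NADPH-producing enzyme of the same pathway, gave ratios of 1.58 and 0.47, and G6pdx, its first enzyme, gave 1.40 and 0.05, so that neither was past the rule. Gys2, the liver-type glycogen synthase, gave 2.98 and 1.29, Nrg4, a factor secreted by brown fat, gave 2.37 and 1.19, and Klb, the FGF21 co-receptor, gave 2.45 and 1.07. Ffar4, a fatty acid receptor, gave 2.70 and 1.14, and Kcnk3, a potassium channel, gave 2.72 and 1.44. All 6 past the rule (Tkt, Gys2, Nrg4, Klb, Ffar4 and Kcnk3) were over 1.5-fold higher on the normal food swimming array than on the Chlorella swimming array.

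Ostn, which encodes the secreted muscle peptide musclin, had log2 levels of 0.69, 2.03 and 2.11, with ratios of 1.34 and 1.42 that were nearly the same on both swimming arrays. Among lower genes, Sfrp4, a secreted Wnt antagonist, had levels of 2.43, 1.25 and 0.90, and Mfap5, a microfibril protein, had 0.69, -0.38 and -0.55.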
